A study of Mus musculus with 39 samples.

Results

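The comparison described here is that of colon from mice without Cd177 against colon from wild-type mice, both with acute pancreatitis (AP), in which the inflamed pancreas can lead to damage elsewhere in the body. It rests on 9 of the 39 samples of the study, 4 from knockout (KO) and 5 from wild-type (WT) mice, and on 15001 of the 55357 genes in the colon table, those with at least 1 FPKM in at least 4 colon libraries. FPKM is a fragment count scaled to gene length and library total. All mice were of the C57BL/6N strain. The KO AP group carried the Cd177 deletion and had AP, and the WT AP group had an intact Cd177 and AP. Colon from 5 WT and 5 KO mice of the sham groups served as the nearest comparison. The study, as its title states, asked how loss of Cd177 bears on lung injury and on the colonic barrier in AP. The sources used here do not give how AP was induced, the allele, the age and sex of the mice, the time of tissue collection or any batch. The labels do not say that each library came from a separate animal, so p-values measure the spread between these libraries, which may be technical.

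Cd177 encodes a surface protein anchored in the membrane, best known from neutrophils, where it is held together with the integrin Itgam-Itgb2 and can bind Pecam1 on endothelium. The colon wall has an epithelium with absorptive cells, mucus-making goblet cells, stem cells and hormone cells, a lamina propria with T cells, plasma cells and macrophages, and a muscle coat with nerves. Barrier function depends on the mucus, on tight junctions that seal the epithelium and on the immune cells beneath it. In RNA from a piece of tissue, fewer cells of a type and less RNA per cell cannot be told apart.

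Values per library are in FPKM, WT in the order of replicates 1 to 5 and KO in the order of replicates 1, 3, 4 and 5, the numbers in their titles. Differences are KO minus WT on the log2(FPKM + 1) scale, with the SE and the adjusted p of limma, a linear model fitted over all genes. A gene passed at an adjusted p under 0.05. Unless a library is named, each gene described as higher or lower in KO also passed in each of 9 fits that left out 1 AP library.

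Cd177 was at 50.8, 49.7, 58.4, 76.4 and 68.001 FPKM in the WT libraries and listed at 0 in all 4 KO libraries. The KO mean fell by 60.7 FPKM. Over the 126 assignments of the 9 libraries, the exact two-sided test by permutation gave p = 0.00794, the smallest it can reach here. The deleted gene thus followed the genotype label in every library.

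Of the 15001 genes, 2743 passed (18.3%), 1106 higher in KO (7.37%) and 1637 lower (10.9%). The counts of the gene lists below are to be read beside these shares. At least 2-fold, 261 were higher and 784 were lower. The median difference over all genes was -0.01, and 2305 genes (15.4%) had no overlap between the 4 KO and 5 WT libraries. The count was 1781 without WT AP replicate 2 and 1817 without WT AP replicate 3. With every library rescaled to the same sum, 541 genes were higher and 1762 lower, and the median over all genes was -0.13. Some groups that are higher below were therefore also read on that scale, as stated there. The KO AP libraries held 78.5 to 98.6 M reads (M, mega) and the WT AP libraries 65.4 to 78.3 M, as recovered from the steps of the values. Depth and genotype cannot be told apart. WT AP replicate 4 had the lowest level of T cell genes of its group, KO AP replicates 3 and 5 stood apart from replicates 1 and 4 in the second principal component, and KO sham replicate 5 held T cell and MHC class II genes at WT levels.

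**Figure D1:**
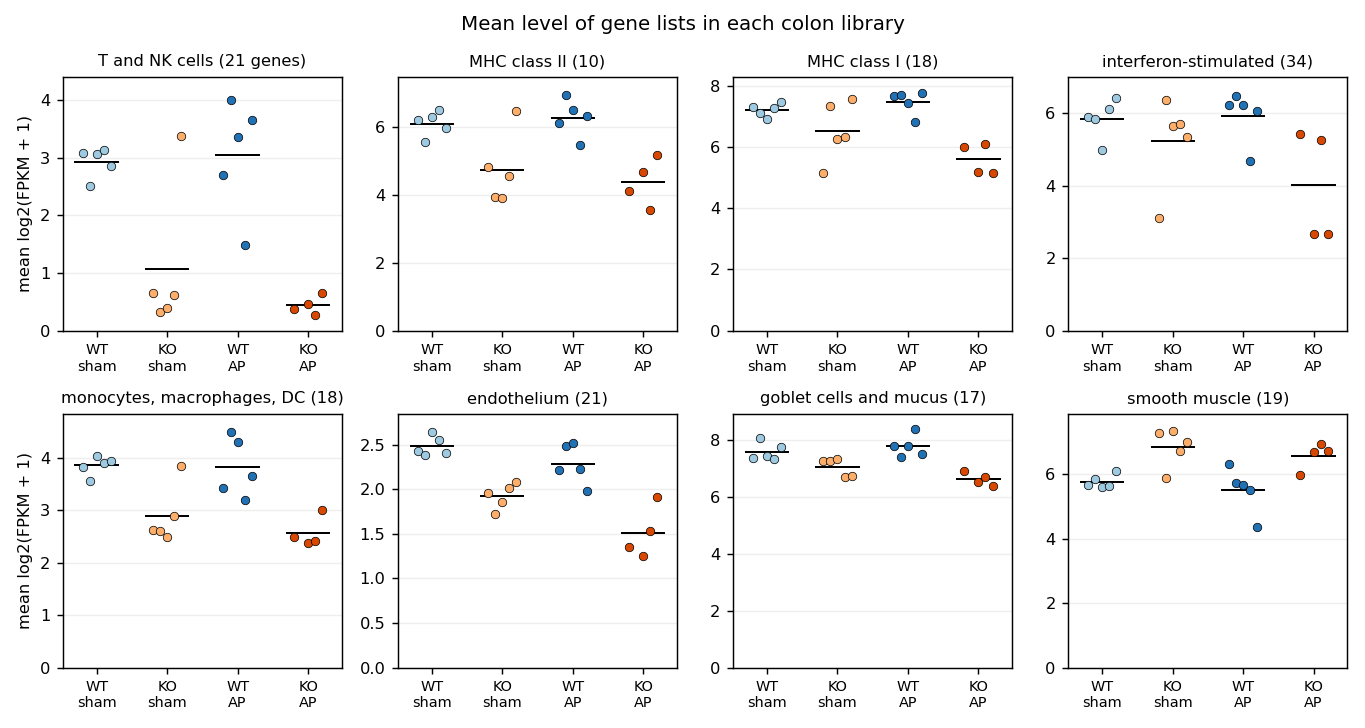
Mean log2(FPKM + 1) of the tested members of 8 gene lists in each colon library, by group (points, libraries; lines, group means). T and NK cell genes are at 0.27 to 0.65 in KO AP and at 1.49 to 4.01 in WT AP, and KO sham replicate 5 is at 3.37.

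The tissue label was checked against markers. The colon epithelium markers Epcam, Krt8 and Vil1 were present in all 9 AP libraries, with Epcam at 942 to 1266 FPKM in WT and 774 to 1089.6 in KO. Apoa4, Sis and Lct, markers of small intestine, and Cpa1, Prss2, Pnlip and Cela2a, enzymes of pancreatic acinar cells, were under 1 FPKM in all 9. Fabp6, the other marker written for small intestine, was present, at 3.43 to 18.3 FPKM in WT and 1.74 to 34.4 in KO. Of 16 acinar genes written as a list, 3 passed the filter, Cela1, Clps and Ctrl. Their mean level was at 3.49 to 4.69 log2 units in WT AP and 3.53 to 4.595 in KO AP. Cela1 was higher in KO (1.22, adjusted p = 0.0231). It did not pass without WT AP replicate 3, without KO AP replicate 3 or 5, or with equal library sums. Clps and Ctrl did not pass, with differences of -1.13 and 0.21. Of 3 liver markers written as absent from colon, Alb was under 1 FPKM in all 9 AP libraries, and Apoa2 and Ttr were present. Apoa2 was at 2.08 to 2.75 FPKM in WT and 0.6995 to 2.67 in KO, and Ttr at 2.19 to 17.8 and 2.60 to 22.1. The 9 epithelial markers summed to 4888 to 6368 FPKM in WT AP and to 3679 to 8579 in KO AP, so the groups overlapped.

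T cell and cytotoxic genes were far lower in KO colon. Of 21 tested genes of T and natural killer (NK) cells, of 26 written, 21 were lower, beside 10.9% of all genes, with a median difference of -2.48 beside -0.01. In 19 of them the groups did not overlap, every KO library below every WT library, as in 8.61% of all genes. They numbered 21 in each of the 9 fits that left out an AP library. Ccl5, a chemokine of activated T and NK cells, was at 52.5, 204, 111, 15.8 and 96.4 FPKM in WT and at 2.06, 1.18, 0.1496 and 1.72 in KO. Every KO value was below every WT value, and the difference was -5.08 ± 0.99 (adjusted p = 0.00287). Gzmb, a granule protease with which cytotoxic cells kill targets, was at 29.5, 45.7, 20.6, 1.71 and 60.8 FPKM in WT and at 0.169, 0.113, 0.0634 and 0.108 in KO (-4.31 ± 0.97, adjusted p = 0.00643). WT AP replicate 4 was the lowest WT library for both genes and still above all KO libraries. Gzma, another granzyme, differed by -3.97 ± 0.85 (adjusted p = 0.0049), and Nkg7, a granule membrane protein, by -3.96 ± 0.78 (adjusted p = 0.003).

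The same held for the receptor genes that define T cells. Cd3e, a chain of the T cell receptor complex, was at 5.83, 17.8, 11.2, 2.48 and 13.1 FPKM in WT and 0.202, 0.639, 0.319 and 1.22 in KO (-2.62 ± 0.49, adjusted p = 0.00238). Cd3d was at 2.02 to 11.9 FPKM in WT and at 0 to 0.213 in KO. Cd4, the co-receptor of helper T cells, differed by -2.03 ± 0.38 (adjusted p = 0.00236), and Lck, the kinase that starts signalling from the receptor, by -2.48 ± 0.44 (adjusted p = 0.00177). The 5 marker genes Cd3e, Cd3d, Cd4, Cd8a and Nkg7 summed to 11.4 to 98.0 FPKM in WT AP and to 1.05 to 3.55 in KO AP. After sham, 4 of 5 KO libraries were also low, and KO sham replicate 5 was not: Ccl5 was at 2.24, 0.556, 1.296, 2.23 and 168 FPKM in KO sham and at 66.4 to 108 in WT sham. Of the 21 genes 20 were lower in KO sham, with a median of -1.66, and 21 without KO sham replicate 5, with a median of -2.16. The count was 15 to 21 in fits without 1 sham library. It was 15 without KO sham replicate 2, with a median of -1.52.

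MHC class II molecules, which present peptides to helper T cells, were low with them. Of 10 tested genes 6 were lower, with a median of -2.54, and 6 were lower in each fit without an AP library. H2-Ab1, a chain of the class II molecule I-A, was at 536, 793, 503, 207 and 516 FPKM in WT and at 29.1, 68.4, 24.03 and 116 in KO (-3.25 ± 0.61, adjusted p = 0.00225). KO AP replicates 3 and 5 were above replicates 1 and 4, and all were below WT. H2-Aa, the other chain of I-A, was at 468, 837, 515, 169.6 and 504 FPKM in WT and 38.4, 68.9, 27.2 and 124 in KO (-2.99 ± 0.66, adjusted p = 0.00589). Cd74, the invariant chain, differed by -3.10 ± 0.67 (adjusted p = 0.00522), H2-Eb1 by -2.80 ± 0.54 and H2-DMb1, which helps to load peptides, by -3.07 ± 0.62. Ciita, the coactivator that switches class II genes on, was at 8.92, 17.1, 8.84, 2.98 and 10.8 FPKM in WT and at 0.659, 0.893, 0.826 and 1.92 in KO (-2.25 ± 0.55, adjusted p = 0.00961). H2-DMb2, H2-Ob, H2-Oa and Ctss, which complete the list, did not pass, with differences from -0.71 to -0.08.

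Class II promoters share a Y box, bound by the factor NF-Y next to the site of Ciita's partners, and the promoters of 2 genes that were lower in KO are shown for it. The 250 bases before the start are from RefSeq GRCm38.p6, at chr17:34305617-34305866 for H2-Eb1 and chr17:34287824-34288073 for H2-Aa on the minus strand, 5′ to 3′ on the gene's strand, with each CTGATTGG in capitals.
H2-Eb1: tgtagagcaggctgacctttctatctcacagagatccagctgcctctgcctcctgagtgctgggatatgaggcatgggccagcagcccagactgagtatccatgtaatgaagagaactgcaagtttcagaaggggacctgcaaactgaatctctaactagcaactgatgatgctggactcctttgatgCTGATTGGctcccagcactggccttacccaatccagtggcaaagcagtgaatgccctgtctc
H2-Aa: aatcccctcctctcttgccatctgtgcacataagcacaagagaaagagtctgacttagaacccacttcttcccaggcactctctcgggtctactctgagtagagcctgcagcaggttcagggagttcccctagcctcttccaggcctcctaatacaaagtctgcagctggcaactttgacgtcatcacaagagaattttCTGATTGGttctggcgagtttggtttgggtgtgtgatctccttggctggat
The match began 62 bases before the start in H2-Eb1 and 51 bases before it in H2-Aa. On either strand, CTGATTGG was found in 2 of 4 class II genes with a promoter in the table that were lower in KO and in 1 of 4 that did not pass. Over all 27025 genes with a promoter the share was 4.43%.

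MHC class I genes, which present peptides to cytotoxic T cells and are made by most cells, were lower as well. Of 18 tested genes of class I and of peptide supply 15 were lower, with a median of -1.51, and the count lay between 13 and 17 in fits without 1 AP library. H2-K1, a classical class I molecule, was at 2584, 2938, 2742, 2013 and 2720.4 FPKM in WT and at 811, 1110.5, 1017 and 764 in KO (-1.49 ± 0.29, adjusted p = 0.00278). H2-Q7, a class I-like molecule, was at 107, 163, 152, 64.8 and 138 FPKM in WT and 7.69, 2.49, 7.51 and 4.09 in KO (-4.31 ± 0.64, adjusted p = 0.000641). For both genes the groups did not overlap. H2-Q6 differed by -3.73 ± 0.52, H2-Q4 by -2.23 ± 0.39 and H2-M3 by -1.20 ± 0.22; H2-Q genes are near-identical copies, so the split of reads between them is uncertain. B2m, the light chain of every class I molecule, was at 3065, 2918, 2708, 2159 and 3009 FPKM in WT and at 1129, 319, 1751 and 332 in KO (-2.02 ± 0.49, adjusted p = 0.00932), with KO AP replicates 3 and 5 lowest.

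Genes that interferons induce, among them antiviral enzymes and guanylate-binding proteins, were lower on the whole list, but only part of them passed. All 34 tested genes had a negative difference, with a median of -1.89, and 12 were lower by the test. The count moved with single libraries. Leaving out KO AP replicate 1 gave 24, and leaving out KO AP replicate 3 or 5 gave 3. It was 7, 4, 6 and 6 without WT AP replicates 1, 2, 3 and 5. Mx1, an antiviral GTPase, was at 36.2, 61.4, 46.9, 7.68 and 39.2 FPKM in WT and 6.71, 2.01, 7.205 and 0.726 in KO (-2.95 ± 0.73, adjusted p = 0.0108). Ifi27l2a was at 330.2, 448, 628, 730.0 and 451 FPKM in WT and 119.7, 10.02, 78.4 and 25.7 in KO (-3.61 ± 0.74, adjusted p = 0.00376). In both genes the lowest WT library was above the highest KO library. The mean level of the list was at 5.44 and 5.26 log2 units in KO AP replicates 1 and 4 and at 2.67 and 2.68 in replicates 3 and 5, against 4.69 to 6.48 in WT. Iigp1, an interferon-inducible GTPase, followed this split, at 9.23, 0.364, 18.6 and 0.683 FPKM in KO and 145, 137, 67.6, 13.1 and 128 in WT. Its difference of -4.03 ± 1.12 (adjusted p = 0.0192) did not pass without KO AP replicate 3 or without KO AP replicate 5. What sets these pairs of KO libraries apart was not tested.

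The interferon-stimulated response element is the site of the interferon-activated factors, and the promoters of Gbp2, from the interferon list, and of B2m are shown for it, as above, at chr3:142620413-142620662 and chr2:122147437-122147686. In capitals is each TTTC followed, after any 2 bases, by another TTTC, on either strand.
Gbp2: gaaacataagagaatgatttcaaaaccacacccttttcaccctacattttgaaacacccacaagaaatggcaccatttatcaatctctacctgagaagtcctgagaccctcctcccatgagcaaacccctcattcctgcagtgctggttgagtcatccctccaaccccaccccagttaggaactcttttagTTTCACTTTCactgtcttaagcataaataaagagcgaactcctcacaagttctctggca
B2m: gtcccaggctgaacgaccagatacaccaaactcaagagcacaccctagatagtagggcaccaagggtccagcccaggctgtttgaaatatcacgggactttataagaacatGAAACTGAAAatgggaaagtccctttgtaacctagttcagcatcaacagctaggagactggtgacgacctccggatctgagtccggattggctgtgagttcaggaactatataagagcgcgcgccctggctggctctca
The match began 59 bases before the start of Gbp2 and 139 bases before that of B2m. It was found in 5 of 7 interferon-stimulated genes with a promoter in the table that were lower in KO, in 10 of 18 that did not pass and in 3.46% of all promoters. Among class I genes it was in 2 of 13 that were lower, B2m included, and in 0 of 3 that did not pass. Gbp2, a guanylate-binding protein, was at 239.6, 216, 76.9, 20.3 and 215 FPKM in WT and 37.7, 11.2, 21.6 and 7.101 in KO, with overlapping groups (-2.72 ± 0.84, adjusted p = 0.0322). It did not pass without WT AP replicate 1, 2 or 5 or without KO AP replicate 3 or 5.

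Some genes that interferon-gamma can induce were lower and others did not pass. Ido1, which breaks down tryptophan, was at 229, 89.6, 35.1, 5.91 and 174 FPKM in WT and 0.577, 0.0613, 5.197 and 0.541 in KO (-4.95 ± 1.16, adjusted p = 0.00794). KO AP replicate 4 came close to WT AP replicate 4, without overlap. Cxcl9, which draws T cells, was at 47.6, 44.5, 19.4, 2.29 and 46.6 FPKM in WT and 0.825, 0.0983, 2.01 and 0.0499 in KO (-3.88 ± 0.82, adjusted p = 0.00439), and Ubd, a ubiquitin-like protein, differed by -3.43 ± 0.88 (adjusted p = 0.0128). Ccl8, a chemokine of monocytes and T cells, was at 49.8, 90.2, 78.3, 42.1 and 68.8 FPKM in WT and 4.84, 0.139, 4.05 and 1.996 in KO (-4.34 ± 0.67, adjusted p = 0.000836). Cxcl10, Nos2 and Irf1, which interferon-gamma also induces, differed by -2.18 ± 0.84, -0.92 ± 0.74 and -0.68 ± 0.36 and did not pass, Cxcl10 other than without WT AP replicate 4 or KO AP replicate 1. Ifng itself was at 0.0593 to 3.84 FPKM in WT and 0 to 0.169 in KO and passed only without WT AP replicate 4 (-1.24 ± 0.50, adjusted p = 0.0897 with all libraries). Of 19 tested inflammatory cytokines and chemokines 5 were lower and 1 higher, with a median of -0.61. The lower count was 9 when WT AP replicate 4 was left out, 2 when KO AP replicate 5 was, and 3 without WT AP replicate 1, 2, 3 or 5 or KO AP replicate 3. Ccl4 was lower (-1.86 ± 0.45, adjusted p = 0.00957), and the 1 higher gene was Ccl25, which is made by epithelium (0.47 ± 0.14, adjusted p = 0.028) and did not pass without WT AP replicate 2 or KO AP replicate 3, 4 or 5 or with equal library sums. The cytokine genes Il1b and Tnf had differences of -1.22 and -0.61; both passed without WT AP replicate 4, and Tnf also without KO AP replicate 1.

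Genes of monocytes, macrophages and dendritic cells were lower in 11 of 18 tested cases, of 24 written, with a median of -1.32. C1qa, a complement subunit made by resident macrophages, was at 69.98, 152, 133, 52.3 and 63.6 FPKM in WT and 12.2, 18.4, 17.1 and 42.4 in KO (-2.04 ± 0.38, adjusted p = 0.00235). C1qb and C1qc differed by -1.85 ± 0.38 and -1.89 ± 0.39. Ly6c2, carried by inflammatory monocytes, was at 47.4, 101, 158, 35.3 and 79.5 FPKM in WT and 14.5, 1.297, 6.18 and 11.04 in KO (-3.32 ± 0.62, adjusted p = 0.00225), and Cx3cr1, a receptor of resident macrophages, differed by -1.28 ± 0.21 (adjusted p = 0.00106). In each of these genes the KO libraries were below all WT libraries.

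Neutrophil genes were sparse in both groups, and only 6 of 21 written passed the filter. S100a8 and S100a9, the most abundant neutrophil proteins, were at 0.4703 to 5.35 and 0.5303 to 8.29 FPKM in WT and at 0 to 1.45 and 0 to 1.92 in KO, and neither passed. Cxcr2, the receptor that leads neutrophils into tissue, was at most at 0.207 FPKM in any AP library. Csf3r, the receptor of their growth factor, was at 1.55, 3.05, 2.73, 0.605 and 2.38 FPKM in WT and 0.165, 0.2303, 0.591 and 0.565 in KO (-1.08 ± 0.25, adjusted p = 0.00794). Ly6g, whose product is the usual antibody target for mouse neutrophils, went the other way, at 10.3, 52.2, 51.4, 76.8 and 26.1 FPKM in WT and 768, 379, 235 and 248 in KO (3.30 ± 0.51, adjusted p = 0.00086). The lowest KO library was 3 times the highest WT library. Ly6g was the 1 higher and Csf3r the 1 lower gene of the 6, and the lower count was 3 without WT AP replicate 4 and 2 without KO AP replicate 5. The 5 neutrophil markers S100a8, S100a9, Csf3r, Cxcr2 and Ly6g summed to 16.6 to 78.7 FPKM in WT AP and 236 to 772 in KO AP, nearly all of it Ly6g. After sham, Ly6g was at 46.5 to 71.7 FPKM in WT and 116 to 488 in KO (1.99, adjusted p = 0.00545). Its source was not tested.

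Of 5 genes written for the surface partners of Cd177, 4 were tested and 3 of these were lower. Prtn3, a neutrophil protease gene, was below the filter, with means of 0.263 FPKM in WT AP and 0.438 in KO AP. Itgb2, the integrin beta chain of all white blood cells, was at 8.497, 27.04, 21.3, 4.15 and 16.1 FPKM in WT and 1.53, 1.79, 1.202 and 3.86 in KO (-2.24 ± 0.54, adjusted p = 0.00957). Pecam1, on endothelium and white blood cells, was at 10.04, 13.8, 13.4, 10.1 and 8.06 FPKM in WT and 3.505, 3.29, 5.14 and 6.66 in KO (-1.11 ± 0.19, adjusted p = 0.00151). For both the groups did not overlap. Itgam, the alpha chain that pairs with Itgb2, was at 0.786 to 4.81 FPKM in WT and 0.223 to 0.789 in KO (-1.23 ± 0.35, adjusted p = 0.0217), and did not pass without WT AP replicate 2 or 3 or KO AP replicate 3 or 5. F2rl1, a protease receptor, did not pass (0.01 ± 0.21).

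Near Cd177 on its chromosome, Ceacam10 was low in KO. This gene of the carcinoembryonic antigen family, the tested gene that starts closest to Cd177 in the GRCm38 reference annotation, was at 27.5, 14.3, 24.1, 39.4 and 24.5 FPKM in WT and 5.25, 1.75, 1.02 and 5.45 in KO. The difference was -2.73 ± 0.40 (adjusted p = 0.000601), with no overlap, and it was -2.33 after sham (adjusted p = 0.000397). Of 55 tested genes that start within 2 Mb of Cd177, 3 were higher and 7 lower, Cd177 included, or 18.2%, beside 18.3% over all genes, with a median of -0.19. Whether the deletion reaches Ceacam10 was not tested.

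Genes of B and plasma cells were lower in 4 of 18 tested cases, beside 10.9% of all genes, and the count was 7 without KO AP replicate 5. Igkc, the kappa light chain, was at 1839.8, 4081, 4520.3, 5582 and 4278 FPKM in WT and 817, 656, 888 and 3844 in KO (-1.71 ± 0.41, adjusted p = 0.0093). KO AP replicate 5 lay within the WT range and the other 3 KO libraries below it. Mzb1, which helps plasma cells to secrete antibody, showed the same order, at 3.201, 7.17, 3.704 and 25.2 FPKM in KO and 13.5 to 46.5 in WT (-1.99 ± 0.47, adjusted p = 0.00841). Prdm1, a plasma cell regulator also active in epithelium and T cells, differed by -1.27 ± 0.24 (adjusted p = 0.00247). Ms4a1, a B cell surface protein, had a difference of -0.02 and did not pass. Of 5 tested genes of mast cells and eosinophils 2 were lower, and 1 without KO AP replicate 3. Mcpt1, a protease of mucosal mast cells, was at 9.07, 2.55, 4.16, 2.303 and 5.39 FPKM in WT and 0.767, 0.6504, 0.0561 and 2.12 in KO (-1.57 ± 0.35, adjusted p = 0.00641).

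Hemoglobin genes, the mark of red blood cells in the tissue, were lower in 4 of 6 tested erythroid genes, and in 4 in each fit without an AP library. Hbb-bs, a beta globin, was at 37.3, 96.2, 40.7, 36.8 and 85.9 FPKM in WT and 8.45, 0.788, 5.97 and 6.604 in KO (-3.33 ± 0.50, adjusted p = 0.000641). Hba-a1 was at 23.5, 61.8, 27.1, 30.1 and 64.6 FPKM in WT and 7.44, 1.95, 4.53 and 5.02 in KO (-2.86 ± 0.43, adjusted p = 0.000754), and Hba-a2 and Hbb-bt differed by -3.07 ± 0.41 and -2.73 ± 0.48. The globin copies share sequence, so the split between them is uncertain. No KO library reached the lowest WT library. Alas2, which makes the heme of red cells, was under 1 FPKM in all 9 libraries. After sham Hbb-bs differed by -0.96 and did not pass (adjusted p = 0.127).

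Vascular genes were lower together. Of 21 tested endothelial genes 16 were lower, with a median of -0.78 and a count of 13 to 18 in fits without 1 AP library. Cdh5, the cadherin of endothelial junctions, was at 3.55, 4.12, 4.46, 3.07 and 3.16 FPKM in WT and 0.8296, 0.462, 0.982 and 1.496 in KO (-1.28 ± 0.15, adjusted p = 0.000104). Erg, an endothelial transcription factor, was at 1.05, 1.64, 1.94, 1.297 and 1.08 FPKM in WT and 0.239, 0.159, 0.231 and 0.764 in KO (-0.84 ± 0.15, adjusted p = 0.00168). For Cdh5 and Erg the groups were apart. Icam2 and the VEGF receptor Flt1 differed by -1.17 ± 0.24 and -0.87 ± 0.16. Icam1, an adhesion molecule that inflamed vessels display to white blood cells, was at 10.8, 21.2, 12.2, 4.36 and 14.5 FPKM in WT and 3.82, 3.37, 2.27 and 3.89 in KO (-1.53 ± 0.38, adjusted p = 0.0112). Thbd, the thrombin receptor of vessels, differed by -1.05 ± 0.19 (adjusted p = 0.00202). Of 9 tested endothelial activation genes 4 were lower, and 2 without WT AP replicate 3, KO AP replicate 3 or KO AP replicate 4.

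Genes of fibroblasts and matrix were lower in 16 of 28 tested cases, with a median of -0.71. The count was 7 without WT AP replicate 2 or 3 and 8 without KO AP replicate 3. Mmp2, a matrix protease, was at 18.4, 22.1, 25.4, 17.9 and 15.3 FPKM in WT and 8.22, 6.27, 7.31 and 11.1 in KO (-1.18 ± 0.16, adjusted p = 0.000375), and Pdgfra, the growth factor receptor of subepithelial fibroblasts, at 9.67, 11.9, 10.3, 11.3 and 7.22 and 4.49, 3.86, 6.35 and 5.92 (-0.85 ± 0.16, adjusted p = 0.00209). Both groups of values were apart. Col6a2, Fbn1 and Pdgfrb differed by -0.86 ± 0.16, -0.93 ± 0.20 and -0.82 ± 0.17. The matrix genes Dcn, Lum and Postn did not pass, with differences of 0.07, 0.72 and 0.48, though Lum passed as higher without WT AP replicate 1 or KO AP replicate 3. With equal library sums 11 of the 28 were lower. Of 10 tested adipocyte genes 4 were lower and 1 higher. The lower count was 2 without WT AP replicate 2 or 3 or KO AP replicate 3 or 5, and the higher one, Adrb3, did not pass without WT AP replicate 5 or KO AP replicate 3 or 5 or with equal library sums. Fabp4, of fat cells and capillaries, was at 24.7, 27.6, 28.2, 22.8 and 18.5 FPKM in WT and 4.33, 3.14, 7.74 and 12.003 in KO (-1.83 ± 0.28, adjusted p = 0.000814). The fat cell marker Adipoq was at 0.183 to 3.48 FPKM in WT and listed at 0 in all 4 KO libraries, and did not pass (adjusted p = 0.148).

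Genes of smooth muscle were higher in KO. Of 19 tested, 13 were higher, beside 7.37% of all genes, with a median of 1.22. In 4 every KO library was above every WT library, beside 6.76% of all genes. The count was 6 without KO AP replicate 3, 4 or 5 and 8 without WT AP replicate 5. Vcl, which links actin to the membrane in many cells, had a negative difference (-1.05 ± 0.37) and passed as lower without WT AP replicate 4 or 5 or KO AP replicate 4. With equal library sums 6 were higher, and the median was 1.16. Acta2, the actin of smooth muscle, was at 342, 235, 224, 234 and 90.2 FPKM in WT and 384, 626, 723 and 649 in KO (1.48 ± 0.33, adjusted p = 0.00557), with no overlap. Des, the muscle filament, was at 296, 117, 144, 133 and 33.6 FPKM in WT and 227, 488, 539 and 551 in KO (1.84 ± 0.44, adjusted p = 0.00924), with overlap. Tagln and Tpm2, both of the contractile apparatus, differed by 1.47 ± 0.36 and 1.41 ± 0.33. WT AP replicate 5 had the lowest value of its group in these 4 genes. The markers Acta2, Myh11, Des and Actg2 summed to 184.7 to 1182 FPKM in WT AP and 1121 to 2169 in KO AP. How deep into the wall each piece of tissue reached is not given in the sources used here, and its part in the other differences was not tested.

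Genes of enteric neurons and glia, which lie in and beside the muscle coat, were higher in 8 of 18 tested cases, with a median of 0.82. The count was 17 when KO AP replicate 1 was left out, and 3 without WT AP replicate 2, 3 or 5 or KO AP replicate 3, 4 or 5. With equal library sums 5 were higher and 1 lower. Tac1, the precursor of substance P, was at 19.6, 9.58, 10.7, 13.2 and 18.5 FPKM in WT and 57.3, 36.8, 60.7 and 35.1 in KO (1.67 ± 0.24, adjusted p = 0.000516). The KO libraries were all above the WT libraries. Stmn2, a neuronal growth protein, differed by 1.26 ± 0.32 (adjusted p = 0.0127). Nrtn, a growth factor for enteric neurons, was at 7.83, 2.74, 3.597, 5.76 and 2.79 FPKM in WT and 8.797, 35.5, 18.5 and 29.9 in KO (2.04 ± 0.34, adjusted p = 0.00106).

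Goblet cell genes, the first layer of the barrier, were lower in 10 of 17 tested cases, with a median of -1.13 and a count of 7 to 10 in fits without 1 AP library. Muc2, the mucin that forms the colonic mucus gel, was at 697, 376, 665, 519.7 and 496 FPKM in WT and 175, 140.1, 307 and 113 in KO (-1.65 ± 0.45, adjusted p = 0.0178). All KO libraries were below all WT libraries, but it did not pass without KO AP replicate 3 or 5. Clca1, a protease of the mucus, was at 619.8, 619, 1256, 2627 and 357 FPKM in WT and 148, 344, 74.3 and 271 in KO (-2.25 ± 0.54, adjusted p = 0.00932). Spink4, a secreted goblet cell peptide, was at 1480.0, 1046, 1159, 3715 and 1758 FPKM in WT and 492, 578, 651 and 439.7 in KO (-1.61 ± 0.35, adjusted p = 0.00534). WT AP replicate 4 was the highest library for Clca1 and Spink4, and the WT minimum was still above the KO maximum. Atoh1, the factor that commits cells to the secretory lineage, was at 31.3, 42.01, 37.9, 50.7 and 38.6 FPKM in WT and 23.1, 22.5, 18.5 and 18.8 in KO (-0.91 ± 0.20, adjusted p = 0.00542), and Bcas1 differed by -1.39 ± 0.31. After sham 6 of the 17 were lower, and Muc2 did not pass (-0.60, adjusted p = 0.293).

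**Figure D2:**
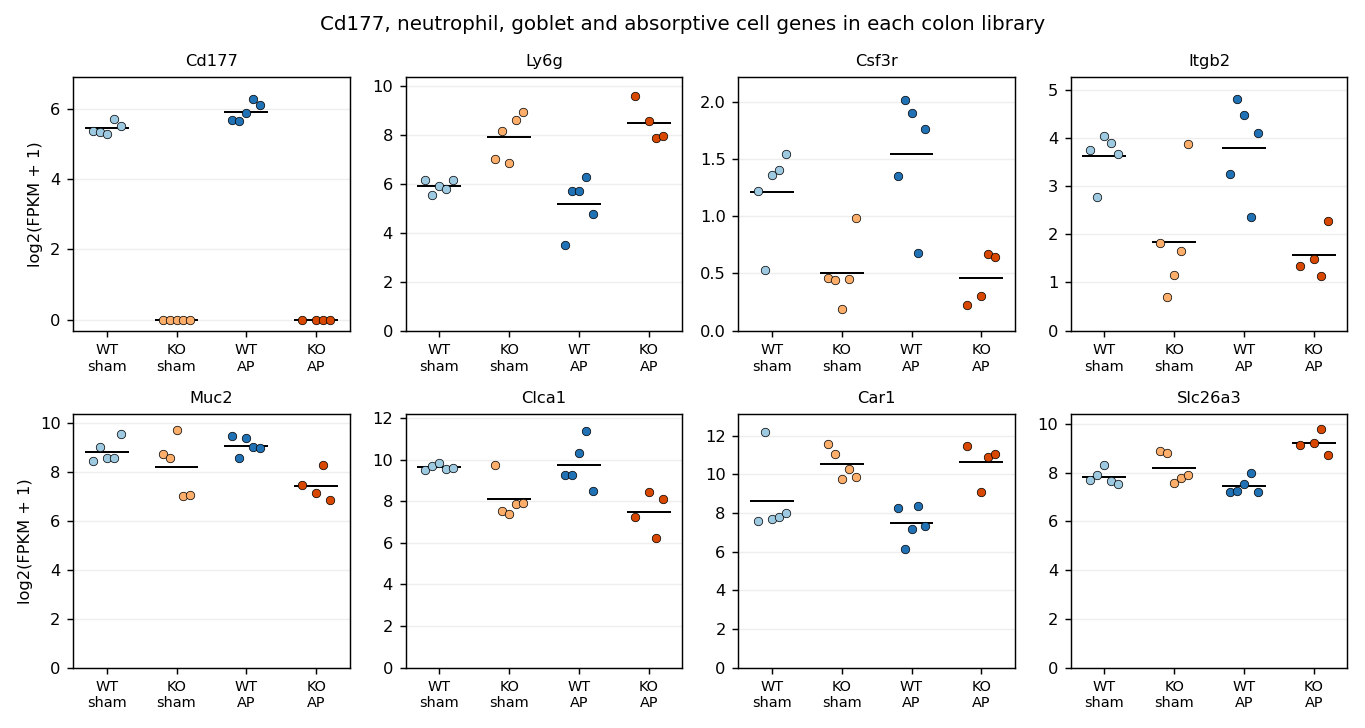
Levels of 8 genes in each colon library as log2(FPKM + 1), by group (points, libraries; lines, group means). Cd177 is 0 in KO, Ly6g, Car1 and Slc26a3 are higher in all KO AP libraries than in any WT AP library, and Csf3r, Itgb2, Muc2 and Clca1 are lower.

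Junction genes differed less. Of 17 tested tight junction genes 5 were lower, with a median of -0.10. Their mean level was at 5.01 to 5.35 log2 units in the KO AP libraries and at 5.52 to 5.57 in WT AP, without overlap. The count was 3 without WT AP replicate 2 or 3 or KO AP replicate 3 or 4, and 2 without KO AP replicate 5. Cgn, the adaptor cingulin, was at 40.7, 43.003, 46.7, 41.3 and 37.3 FPKM in WT and 20.6, 35.7, 28.6 and 25.7 in KO (-0.60 ± 0.15, adjusted p = 0.0107), with no overlap. It did not pass with the libraries rescaled without the mitochondrially encoded genes (adjusted p = 0.0624). Cldn23 was at 40.5 to 62.9 FPKM in WT and 15.8 to 32.4 in KO (-1.12 ± 0.31, adjusted p = 0.019) and did not pass without KO AP replicate 3 or 5. Cldn4, a sealing claudin, differed by -1.28 ± 0.43 (adjusted p = 0.0461) and passed in 1 of 9 fits that left out an AP library, the one without WT AP replicate 5. Tjp3 differed by -0.34 ± 0.11 (adjusted p = 0.0315) and did not pass without WT AP replicate 2, 3 or 5 or KO AP replicate 4 or 5. The core genes Tjp1 and Ocln did not pass, with differences of -0.10 ± 0.15 and -0.01 ± 0.18. Of 14 adherens junction and desmosome genes Ctnnd1, a catenin that stabilizes cadherins, was lower (-0.62 ± 0.15, adjusted p = 0.00883). Cdh1, the epithelial cadherin itself, did not pass (-0.22 ± 0.13). Without KO AP replicate 4, 2 of the 14 were lower.

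Of 14 tested antimicrobial genes 1 was higher, a share near the 7.37% of all genes. Without WT AP replicate 4 or KO AP replicate 4 there were 1 and 2 lower genes. The higher gene was Il18, a cytokine of the epithelium. It was at 19.7, 37.3, 45.99, 42.6 and 40.8 FPKM in WT and 195, 90.8, 109 and 98.8 in KO (1.69 ± 0.43, adjusted p = 0.013). Ang4, a bactericidal ribonuclease, was at 49.1, 2.18, 173, 2025 and 1.72 FPKM in WT and at 0, 9.69, 3.06 and 3.71 in KO, without passing (-3.52 ± 1.56, adjusted p = 0.123). WT AP replicate 4 held most of it.

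Absorptive cell genes were split. Of 20 tested, 3 were higher and 1 lower, beside 7.37% higher and 10.9% lower over all genes, with a median of 0.00. Car1, a carbonic anhydrase of the proximal colon, was at 311, 69.2, 146, 333 and 162 FPKM in WT and 2827, 541, 1883 and 2168 in KO (3.16 ± 0.79, adjusted p = 0.0114). Slc26a3, the chloride and bicarbonate exchanger, was at 148, 153, 187, 252 and 146 FPKM in WT and 565, 603, 886 and 429 in KO (1.79 ± 0.28, adjusted p = 0.000889). Car4 was at 708, 538, 577, 708 and 742 FPKM in WT and 1505, 1764, 1951 and 1150.2 in KO (1.27 ± 0.23, adjusted p = 0.0019). In all of these the KO libraries were above the WT libraries. Vil1, the villin of the brush border, was lower (-0.63 ± 0.19, adjusted p = 0.0298), but not without WT AP replicate 1, 2 or 3 or KO AP replicate 3 or 5. Without KO AP replicate 4, 3 genes of the list were lower. In WT sham, replicate 2 alone held Car1 at 4727 FPKM, and the part of the colon that was sampled is not given in the sources used here. Among 19 ion and water transport genes 3 were higher, and 2 with equal library sums, with Slc16a1, a carrier of butyrate and lactate, at 41.9, 57.3, 51.3, 76.5 and 47.3 FPKM in WT and 98.5, 85.7, 117 and 96.3 in KO (0.87 ± 0.22, adjusted p = 0.0109). Atp1b1, a subunit of the sodium pump, differed by 0.69 ± 0.17 (adjusted p = 0.0114).

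Other large rises were taken by their size among passing genes with non-overlapping groups and a mean of at least 5 FPKM, and form no list. That they passed and that their groups were apart thus follows from the choice. Rbp2, which carries retinol in absorptive cells, was at 5.37, 6.74, 6.16, 11.5 and 5.301 FPKM in WT and 28.3, 65.6, 20.5 and 51.6 in KO (2.32 ± 0.41, adjusted p = 0.00163). Prdx6, an antioxidant peroxidase, was at 295, 425, 359.6, 606 and 559.6 FPKM in WT and 2065, 2123, 818 and 2176 in KO (1.94 ± 0.35, adjusted p = 0.00191), with KO AP replicate 4 the lowest of its group and above all WT libraries. Bnip3, a protein of mitochondrial clearance, was at 11.9, 9.82, 7.67, 10.7 and 6.203 FPKM in WT and 42.7, 50.6, 23.04 and 33.2 in KO (1.88 ± 0.29, adjusted p = 0.000814). Cyp2d10, a cytochrome P450, was at 10.3, 18.6, 17.1, 20.8 and 15.5 FPKM in WT and 54.96, 148, 34.3 and 52.04 in KO (1.89 ± 0.37, adjusted p = 0.00311). Its close relative Cyp2d12 differed by 2.29 ± 0.64 (adjusted p = 0.0193) and did not pass without WT AP replicate 5 or KO AP replicate 3 or 5. Mir147, a short microRNA gene inside AA467197, was listed at 0 in all 5 WT libraries and at 9.197, 4.62, 28.8 and 5.87 FPKM in KO. Reads of its host, at 389, 274, 224, 633 and 371 FPKM in WT and 758, 369.8, 569.6 and 423 in KO, cannot be told apart from it.

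Enteroendocrine and tuft cell genes were lower in 3 of 17 tested cases, beside 10.9% of all genes. Chgb, a granule protein of hormone cells, was at 35.8, 37.6, 38.99, 26.98 and 41.7 FPKM in WT and 15.97, 8.19, 11.5 and 15.7 in KO (-1.46 ± 0.18, adjusted p = 0.000182), and Tph1, which makes serotonin, differed by -0.81 ± 0.21 (adjusted p = 0.0141). Of 16 stem cell and Wnt target genes 1 was lower and 1 higher: Cd44 differed by -0.97 ± 0.22 (adjusted p = 0.00758), Cdca7 by 0.57 ± 0.16 (adjusted p = 0.0239), the latter not without WT AP replicate 5 or KO AP replicate 1 or 3 and not with equal library sums. Without KO AP replicate 1, 2 genes were lower. Lgr5, the stem cell marker, did not pass (-0.07 ± 0.17). Cell cycle genes were lower in 12 of 30 tested cases, with a median of -0.83. The count was 19 when KO AP replicate 1 was left out, and 6, 4, 4, 3, 7 and 4 without WT AP replicates 2, 3 and 5 and KO AP replicates 3, 4 and 5. Plk1, a kinase of mitosis, was at 35.2, 38.7, 48.8, 42.9 and 57.01 FPKM in WT and 28.96, 14.4, 18.9 and 16.9 in KO (-1.16 ± 0.24, adjusted p = 0.00428). Bub1b, of the spindle checkpoint, was at 6.33, 10.8, 11.1, 6.25 and 11.5 FPKM in WT and 5.4999, 1.23, 3.41 and 2.12 in KO (-1.40 ± 0.33, adjusted p = 0.00901). KO AP replicate 1 was the highest KO library for both. After sham, 7 of the 30 were higher in KO and the median was 0.54. That count was 13 without KO sham replicate 1, 4 without WT sham replicate 5, and 3 without WT sham replicate 2 or 3 or KO sham replicate 3, 4 or 5.

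Genes of the circadian clock differed strongly, Arntl and Nfil3 downward and Per2, Per3, Dbp and Tef upward. The clock is a loop in which Arntl and Clock switch on the Per and Cry repressors and the output factors Dbp, Tef and Hlf, so Arntl peaks when these are low. Of 14 tested core clock genes 7 were higher and 2 lower, and of 12 outputs 7 were higher and 1 lower. The core count was 6 or 7 higher and 2 lower in fits without 1 AP library. The outputs were 4 higher without WT AP replicate 2, 4 or 5 or KO AP replicate 3 or 5. With equal library sums 6 core genes and 3 outputs were higher. Dbp was at 14.9, 4.85, 9.17, 4.03 and 6.31 FPKM in WT and 65.1, 131, 57.5 and 119 in KO (3.45 ± 0.46, adjusted p = 0.000378), the largest rise on the log2(FPKM + 1) scale of any gene named here. Tef was at 11.5, 8.73, 10.01, 6.08 and 10.5 FPKM in WT and 35.9, 74.4, 46.999 and 61.6 in KO (2.40 ± 0.26, adjusted p = 8.37e-05). Ciart, a repressor of Clock and Arntl, was at 2.22, 0.977, 1.38, 0.996 and 1.88 FPKM in WT and 13.1, 14.998, 8.64 and 20.5 in KO (2.59 ± 0.35, adjusted p = 0.000425). In these 3 genes the lowest KO library was at least 3 times the highest WT library.

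Per2 and Per3 were higher as well. Per2 was at 5.302, 3.64, 3.86, 3.21 and 3.24 FPKM in WT and 9.94, 21.7, 14.6 and 24.7 in KO (1.89 ± 0.27, adjusted p = 0.00053), and Per3 at 3.302, 4.12, 2.302, 2.56 and 3.44 and 9.58, 21.7, 11.5 and 18.7 (1.93 ± 0.26, adjusted p = 0.000375). Nr1d2, which represses Arntl, was at 8.31, 7.64, 7.98, 7.48 and 8.26 FPKM in WT and 24.2, 21.7, 26.1 and 22.4 in KO (1.46 ± 0.22, adjusted p = 0.000801). Usp2, a deubiquitinase under the clock, differed by 1.51 ± 0.16 (adjusted p = 8.37e-05). Arntl was at 14.3, 17.5, 18.7, 16.96 and 11.4 FPKM in WT and 5.49, 5.17, 2.59 and 4.87 in KO (-1.62 ± 0.27, adjusted p = 0.00106), and Nfil3, the repressor opposed to Dbp, at 5.83, 5.78, 4.99, 5.59 and 6.25 and 3.28, 0.816, 1.57 and 0.437 (-1.53 ± 0.28, adjusted p = 0.00183). The groups were apart for each of these genes. The same genes differed in the same direction after sham, with Dbp at 1.06 to 2.51 FPKM in WT and 10.95 to 108 in KO and a difference for Arntl of -1.98 on the log2 scale. Per1 differed by 0.76 ± 0.24 in AP (adjusted p = 0.032), but not without WT AP replicate 1, 2 or 4 or KO AP replicate 3 or 5 or with equal library sums, and did not pass after sham. The hour of tissue collection is not given in the sources used here, and an hour that differed between the genotypes cannot be told apart from genotype.

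**Figure D3:**
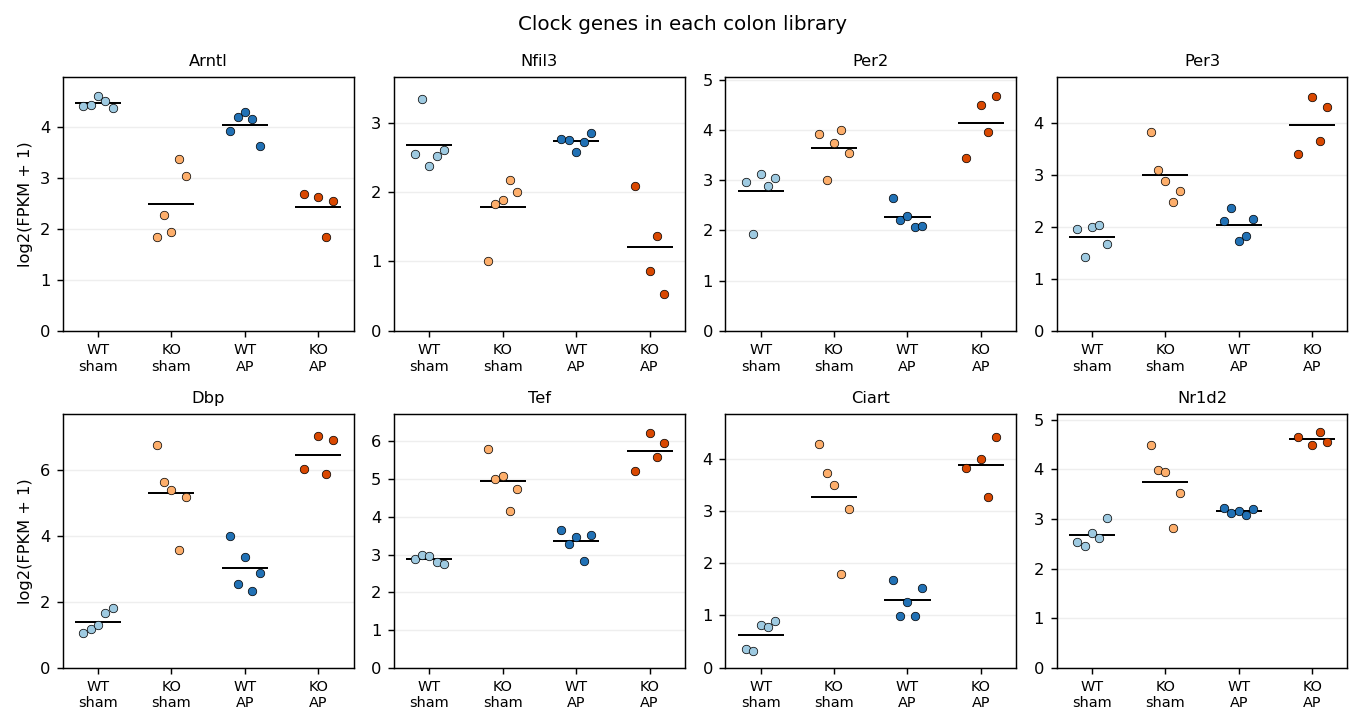
Levels of 8 clock genes in each colon library as log2(FPKM + 1), by group (points, libraries; lines, group means). Arntl and Nfil3 are lower in all KO AP libraries than in any WT AP library, and Per2, Per3, Dbp, Tef, Ciart and Nr1d2 are higher.

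Clock and Arntl bind the E-box and Dbp, Tef and Nfil3 bind the D-box, and 3 promoters of clock genes that were higher in KO are shown for these letters. They are again the 250 bases before the start, at chr3:95882229-95882478 for Ciart and chr4:151044666-151044915 for Per3, both on the minus strand, and at chr15:81811164-81811413 for Tef at the later of its 2 starts. Each CACGTG is in capitals in Ciart and Tef, and each TTATGNAA on either strand in Per3.
Ciart: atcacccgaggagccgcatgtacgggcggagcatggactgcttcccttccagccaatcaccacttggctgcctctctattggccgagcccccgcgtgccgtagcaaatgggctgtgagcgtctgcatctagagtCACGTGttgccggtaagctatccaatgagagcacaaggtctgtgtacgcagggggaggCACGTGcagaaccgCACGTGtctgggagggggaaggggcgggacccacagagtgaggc
Tef: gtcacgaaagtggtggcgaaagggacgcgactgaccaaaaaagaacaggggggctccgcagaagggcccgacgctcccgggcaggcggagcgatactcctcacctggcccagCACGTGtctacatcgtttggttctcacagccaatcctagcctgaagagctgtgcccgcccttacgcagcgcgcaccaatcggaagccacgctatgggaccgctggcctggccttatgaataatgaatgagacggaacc
Per3: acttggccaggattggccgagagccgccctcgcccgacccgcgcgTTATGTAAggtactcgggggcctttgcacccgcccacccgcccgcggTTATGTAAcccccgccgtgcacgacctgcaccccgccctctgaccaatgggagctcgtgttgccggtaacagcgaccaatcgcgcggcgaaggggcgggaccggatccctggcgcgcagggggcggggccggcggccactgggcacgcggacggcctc
The E-box of Tef began 138 bases before this start. Ciart held 3 E-boxes, which began 116, 58 and 44 bases before the start, and Per3 held 2 D-boxes, at 205 and 158 bases. CACGTG was in 2 of 5 core clock genes with a promoter in the table that were higher and in 6.86% of all promoters. TTATGNAA was in 2 of these 5 genes, and in 3.63% of all promoters. Among 5 outputs that were higher, 2 held CACGTG and none TTATGNAA. CACGTG was also in 2 of 4 outputs and 1 of 4 core genes that did not pass.

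Detoxification genes moved in both directions. Of 28 tested targets of the antioxidant factor NRF2 and glutathione transferases 7 were higher and 2 lower, with a median of 0.37, and 5 were higher with equal library sums. Gstp1, a glutathione transferase, was at 159, 171, 177, 206 and 231 FPKM in WT and 435, 329, 334 and 472 in KO (1.05 ± 0.17, adjusted p = 0.000929). Gclm, a subunit of the enzyme that starts glutathione synthesis, was at 8.76, 10.2, 10.2, 10.9 and 10.7 FPKM in WT and 26.4, 15.7, 18.6 and 16.4 in KO (0.84 ± 0.18, adjusted p = 0.00543). Gstm1 and Gstm3 differed by 1.15 ± 0.27 and 1.07 ± 0.22; these copies share sequence, and the split of reads is uncertain. Keap1, which holds NRF2 down, was lower (-0.77 ± 0.18, adjusted p = 0.00707). The other lower gene was Hmox1, an NRF2 target (-1.06, adjusted p = 0.0157), which did not pass without KO AP replicate 4. The targets Nqo1, Gsr and Txnrd1 did not pass, with differences of 0.25, -0.005 and 0.16. The lower count was 1 without KO AP replicate 4. TGACNNNGC, the letters of the antioxidant response element, was in 3 of 6 of the higher genes with a promoter and in 11.5% of all promoters. It was also in 4 of 16 genes of the list that did not pass, and in 0 of 1 that was lower. Of 32 cytochrome P450 and conjugation genes 3 were higher, a share near the 7.37% of all genes, and 1 without WT AP replicate 3 or 5 or KO AP replicate 5, among them Sult1c2, a sulfotransferase (1.30 ± 0.28, adjusted p = 0.00476). Of 26 lipid and sterol genes 4 were higher, and 2 with equal library sums or without WT AP replicate 1, 2 or 3 or KO AP replicate 1 or 3. Msmo1, of cholesterol synthesis, was at 40.4, 48.5, 46.5, 86.8 and 73.2 FPKM in WT and 263, 85.99, 169.6 and 94.2 in KO (1.27 ± 0.31, adjusted p = 0.0104), and Dhcr7 differed by 0.82 ± 0.20 (adjusted p = 0.0104). After sham 15 of the 26 were higher, with a median of 0.75.

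Fasting and fatty acid oxidation genes were lower in 4 of 19 tested cases, beside 10.9% of all genes, and in 2 without KO AP replicate 3. Angptl4, an inhibitor of lipoprotein lipase, was lower (-0.87 ± 0.17, adjusted p = 0.00303). Unfolded protein response genes were lower in 6 of 22, with a median of -0.46, and in 1, 2, 3 and 2 without WT AP replicate 5 and KO AP replicates 3, 4 and 5. Edem1, of protein quality control, was lower (-0.44 ± 0.11, adjusted p = 0.0131). Of 20 chaperones 3 were higher, and 1 without KO AP replicate 5 or with equal library sums, with Cryab, a small heat shock protein of muscle and other cells, at 1.30 ± 0.31 (adjusted p = 0.00948). Of 24 genes of RNA processing 4 were higher, and 0 by limma with equal library sums, where Srsf2 had an adjusted p of 0.0524. Srsf2, a splicing factor, was at 154, 152, 153, 169.8 and 169 FPKM in WT and 316, 271, 242 and 271 in KO (0.77 ± 0.15, adjusted p = 0.00277). Of 12 EGF receptor genes 2 were lower, beside 10.9% of all genes, and 1 without KO AP replicate 3 or 5. Adam17, the protease that frees EGF receptor ligands, was at 10.3, 15.04, 12.8, 10.01 and 11.6 FPKM in WT and 7.76, 6.48, 7.47 and 5.55 in KO (-0.72 ± 0.14, adjusted p = 0.00285). Of 21 glucocorticoid-responsive genes 3 were higher and 1 lower. Of the 3, Cebpb and Per1 did not pass with equal library sums. The higher count was 0 without WT AP replicate 1 or 2 or KO AP replicate 3 or 5 and 1 without WT AP replicate 3. The lower count was 0 without WT AP replicate 2, 3 or 5 or KO AP replicate 3 and 2 without WT AP replicate 4 or KO AP replicate 4. Klf9 and Sgk1, glucocorticoid targets, did not pass (0.50 ± 0.18 and 0.67 ± 0.32), Klf9 other than without WT AP replicate 4. Of 18 immediate early genes 2 were lower. The lower count was 0 without KO AP replicate 5 and 1 in each other fit but the one without WT AP replicate 5, while 2 were higher without WT AP replicate 4 or KO AP replicate 1 and 1 without KO AP replicate 3 or 4. Of 18 tested p53 targets 0 passed in limma and 3 were lower at an unadjusted p under 0.05; 1 was lower without WT AP replicate 4 or 5 or KO AP replicate 1 or 3, and 1 higher without KO AP replicate 1.

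Among 49 ribosomal proteins 6 were lower and 2 higher, beside 10.9% lower and 7.37% higher over all genes, with a median of 0.03. The lower share was near that of all genes. Rps29 was at 1387, 1070.2, 505, 825 and 1108 FPKM in WT and 196, 244, 177 and 305 in KO (-2.03 ± 0.33, adjusted p = 0.000929). Rps28, Rpl37 and Rpl38 differed by -1.73 ± 0.34, -1.68 ± 0.25 and -1.54 ± 0.30, with the groups apart for all 4 genes. The 2 higher genes, Rpl17 and Rplp1, did not both pass without WT AP replicate 2, 3 or 5 or KO AP replicate 3, 4 or 5. The longest transcript in GENCODE vM21 is 461 bases for Rps29, 457 for Rpl38, 925 for Rpl37 and 1443 for Rps28. Over all tested genes whose longest transcript is under 500 bases, 23.7% of 827 were lower and the median was -0.24, against 10.9% lower over all 14937 genes with a length. The part of transcript length in these differences was not tested. The 13 mitochondrially encoded genes of the respiratory chain gave 0 of 13 in limma, 4 at an unadjusted p under 0.05 and a median of 0.69, and mt-Atp6 was at 7368 to 15976 FPKM in KO and 3507 to 7279 in WT (0.99 ± 0.37, adjusted p = 0.0718). They took 7.02% to 11.6% of the summed FPKM in WT AP and 10.6% to 19.1% in KO AP. With the libraries rescaled without them, 816 genes were higher and 1468 lower. Of 40 nuclear-encoded genes of the chain 2 were lower and 1 higher; the lower Ndufa3 was at 131 to 217 FPKM in WT and 34.3 to 92.3 in KO (-1.61 ± 0.32, adjusted p = 0.00325). The lower count was 1 in each fit that left out an AP library other than WT AP replicate 3 or KO AP replicate 5, and the higher gene, Ndufs7, did not pass without WT AP replicate 1, 2 or 3 or KO AP replicate 3, 4 or 5. With equal library sums 6 were lower. After sham 15 of the 40 were higher.

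**Figure D4:**
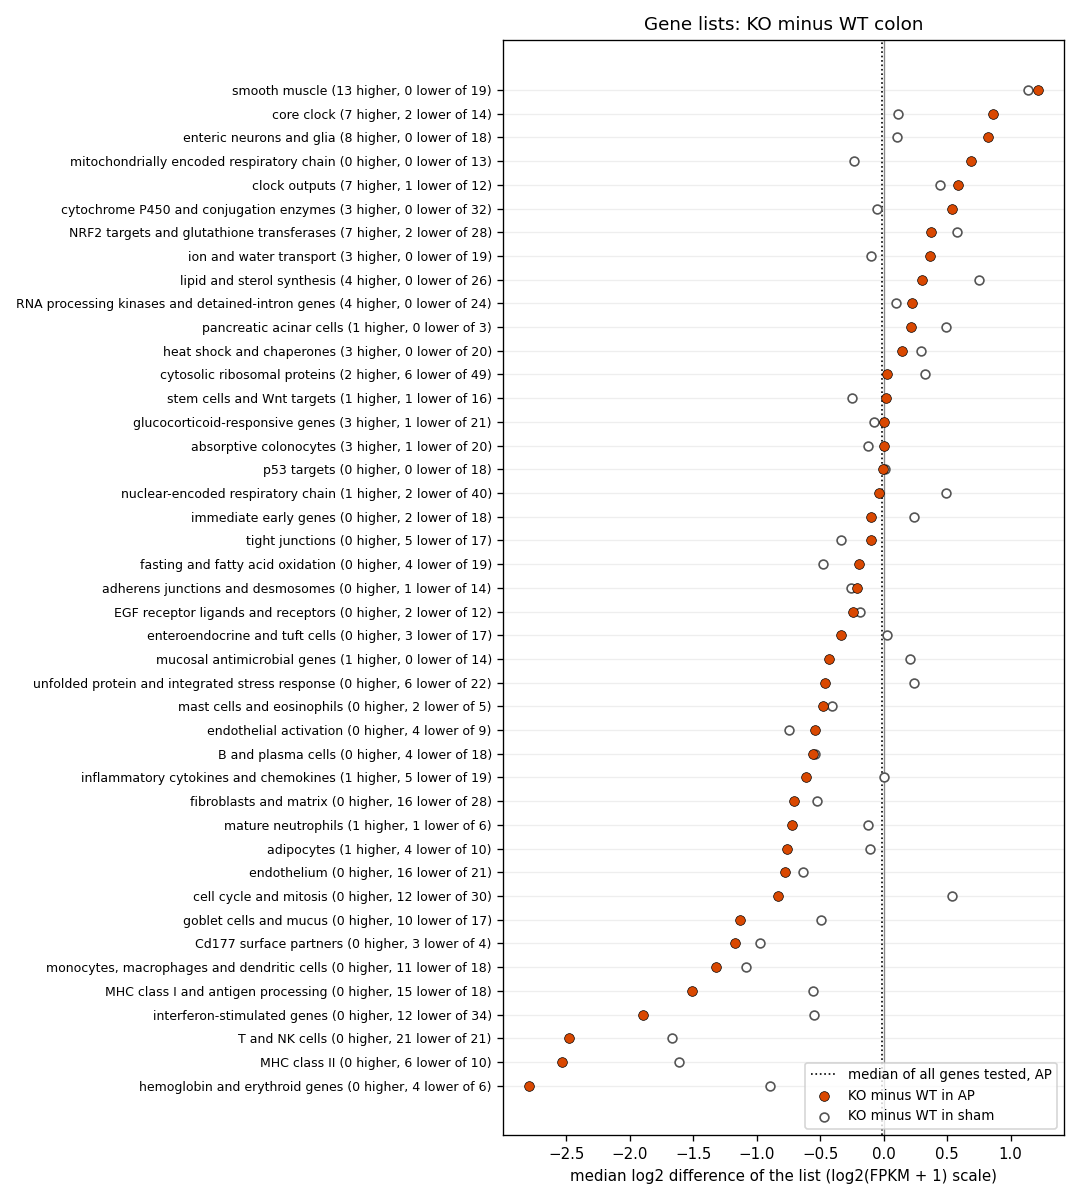
Median KO minus WT difference of each of the 43 gene lists on the log2(FPKM + 1) scale, in AP (filled points) and sham (open points), with the numbers higher and lower in AP beside the name; the dotted line is the median of all genes tested. Hemoglobin, MHC class II and T and NK cell genes lie lowest in AP, at -2.79, -2.54 and -2.48, and smooth muscle genes highest, at 1.22.

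The AP and sham comparisons share no library, but they come from the same fit and share its estimate of spread. Depth was split by genotype after sham too, at 77.7 to 91.2 M reads in KO and 55.6 to 76.6 M in WT. What both comparisons have in common thus cannot be told apart from depth. After sham 4704 genes (31.4%) differed between KO and WT. Of the 2743 genes that passed in AP, 1458 also passed after sham in the same direction, 53.2% of the AP calls and 31.0% of the sham calls, and 9 passed in the opposite direction. The sign after sham was the same for 2497 of the 2743 genes (91.0%). Across the 15001 genes, which are not independent replicates, the differences correlated at r = 0.667. After sham 20 of 21 T and NK cell genes, 6 of 10 class II genes, 12 of 21 endothelial genes and 13 of 18 genes of monocytes, macrophages and dendritic cells were lower in KO, and 11 of 19 smooth muscle genes were higher. Leaving out KO sham replicate 2 gave 15 T and NK cell genes, and leaving out KO sham replicate 2 or 3 gave 3 class II genes. The count of monocyte, macrophage and dendritic cell genes was 8 without WT sham replicate 4 or 5 or KO sham replicate 2 or 4, and 5 without KO sham replicate 3. For interferon-stimulated genes the medians were -1.89 in AP and -0.55 after sham, for class I genes -1.51 and -0.55, for hemoglobin -2.79 and -0.89, and for cell cycle genes -0.83 and 0.54. Some of these sham medians moved with single libraries. Leaving out KO sham replicate 1 gave -0.03 for interferon-stimulated genes and -0.17 for class I genes. Leaving out KO sham replicate 2 or 5 gave -0.84 and -0.87 for class I genes, and leaving out WT sham replicate 3 gave -0.55 for hemoglobin. Of the class I genes 4 were lower after sham, 7 without KO sham replicate 2 and 8 without KO sham replicate 5. KO sham replicate 1 had the lowest level of interferon-stimulated genes in its group, at 3.10 log2 units, beside 5.34 to 6.36 in the other 4.

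The difference between the KO effects in AP and after sham was tested gene by gene. By limma 0 genes passed, with a smallest adjusted p of 0.0783, while 2821 had an unadjusted p under 0.05. Leaving out KO sham replicate 1 gave 1170 genes and leaving out KO AP replicate 1 gave 228. With no filter on low values the count was 2, and with library weights it was 1884. So no gene is described here as differing between AP and sham in its genotype effect. Slc26a3 had a difference of 1.40 ± 0.39 between the effects (adjusted p = 0.107) and Plk1 of -1.21 ± 0.33 (adjusted p = 0.107).

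**Figure D5:**
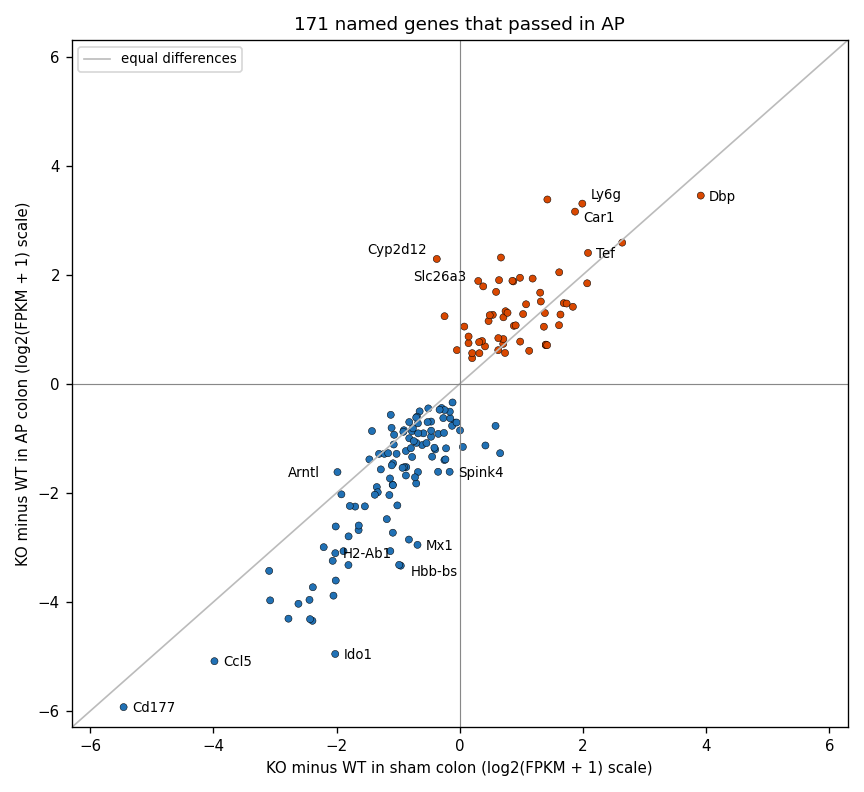
KO minus WT differences in AP (vertical) against sham (horizontal) for the 171 named genes that passed in AP, on the log2(FPKM + 1) scale; blue points are lower and orange points higher in AP, and the gray line marks equal differences. Of these genes 163 have the same sign after sham; they were chosen in AP, so nothing is read from their distance from the line, and the values of Cd177 and Mir147, which are at 0 in 1 genotype, depend on the added 1 FPKM.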

How the data were processed

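Bulk RNA of colon was sequenced on an Illumina platform from Trizol extracts enriched for mRNA, per the labels' protocols. The authors deposited 1 table of FPKM values per gene for the colon. HISAT2 2.1.0, StringTie 1.3.3b and the build mm39 are named by the submitters' processing notes, which give them no role. Whether FPKM was scaled to all mapped fragments is not given in the sources used here.

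From the deposited FPKM values, 15001 of 55357 genes were kept, those that reached 1 FPKM in 4 or more of the 19 colon libraries. Values were analysed as log2(FPKM + 1), so differences of low genes are understated. All 4 colon groups entered 1 fit in limma 3.58.1 (R 4.3.3) with a variance trend, with Benjamini-Hochberg adjustment over all genes tested. The AP contrast, the sham contrast and their difference were taken from that fit. Cd177 was tested by an exact permutation test. Samples were grouped by their labels. The fit was also run on simulated data, drawn independently per gene and library without effects of depth or of single libraries. That run therefore cannot show how such effects change the counts. Tables and plots were made with Python 3.11.15, pandas 2.3.3, numpy 2.4.6 and matplotlib 3.10.9.

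Depth was recovered from the steps of low FPKM values, of which 98.4% to 98.9% per library were whole reads within 0.01 read. Its range over the 19 libraries was 55.6 to 98.6 M reads (M, mega).

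The 43 lists, of 888 genes in all, and the rule were chosen with earlier results of these data known. Genes named are Cd177, the 15 largest differences in each direction among passing genes with non-overlapping groups and a mean of at least 5 FPKM in WT AP or KO AP, up to 5 genes with the lowest p per list, and up to 8 passing genes of the difference between contrasts, of which there were 0. Predicted genes, pseudogenes and receptor segments were left out of the ranking. For the 15 largest differences in each direction, passing and the lack of overlap follow from this rule. A few genes that the rule names are not reported here. Others among them Muc2, Gbp2, B2m, Ceacam10, AA467197, Cd8a, Actg2, Ifng, Cxcl10, Nos2, Irf1, Fabp6, Il1b, Tnf, Tjp1, Ocln, Cdh1, Lgr5 and Vcl were named after their values were seen, as was the Y box letters' search. Hmox1, Nqo1, Gsr and Txnrd1 were likewise named after their values were seen. Promoters are from RefSeq GRCm38.p6, and no coordinate of the authors' build is printed. Motifs were searched on both strands in the 250 bases before each start.

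Alternatives were another pseudocount (0.1 FPKM), no filter, a filter at 5 FPKM, 4 scalings (to equal sums, upper quartile, median ratio, and without mitochondrially encoded genes), the 9 AP libraries alone, library weights, no variance trend, the replicate number as a block, and leaving out each library. The numbers in the titles were not taken to pair libraries, since the correlations of same-numbered KO and WT AP libraries' deviations were -0.281, -0.111, -0.197 and -0.118.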

Additional observations from a re-analysis of the deposited data

Results flagged for a closer look

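In 324 pairs of a named gene and an AP group, the gap between the most extreme library and its nearest neighbour was compared with the range of the group. It was past the critical share of the range (0.71 for 5 libraries, 0.829 for 4) in 13 pairs. Chance alone gives about 1 in 20 for normally distributed values, and 13 of 324 pairs is no more than that.

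WT AP replicate 4 stood apart from its group for 4 genes, at 2025 FPKM of Ang4, 3715 of Spink4, 117.5 of H2-Q4 and 11.5 of Rbp2. WT AP replicate 1 stood apart at 62.9 FPKM of Cldn23, a claudin, and 26.1 of Cryab, WT AP replicate 2 at 12.3 of Il1b, and WT AP replicate 5 at 5.35 of S100a8. Among the KO AP libraries, replicate 4 stood apart at 5.20 FPKM of Ido1 and 818 of Prdx6, replicate 5 at 3844 of Igkc and 0.764 of Erg, and replicate 1 at 0 of Cd3d.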

How the results depend on the processing

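The comparison in AP gave 2743 genes as reported, 1823 of 10101 genes with the filter at 5 FPKM, which tests fewer genes, and 4360 with library weights. Without 1 AP library it gave from 1781 to 3291, and without WT AP replicate 3 it gave 1817. The cause was not tested. Other filters, scalings and fits gave counts within 1.5 times the reported one. The test of the difference between AP and sham gave 0 as reported, 2 with no filter and 1884 with library weights, and from 0 to 1170 without 1 library. Leaving out KO AP replicate 1 gave 228, leaving out KO sham replicate 1 gave 1170, and the cause was not tested. The sham count stayed within 1.5 times of 4704 in each alternative run. With the replicate number as a block, the AP comparison gave 2066 genes (805 higher, 1261 lower). Same-numbered libraries did not deviate together, so the block tests no pairing. No named gene that passed changed sign in any alternative run. The precision is limited by 4 and 5 libraries, which differ in depth with genotype, and a gene at 0 FPKM may be present below detection.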
